A study of Mus musculus with 4 samples.

Results

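The genes described here encode lysosomal hydrolases, their helper proteins and lysosomal membrane proteins. They were chosen by symbol, with earlier results of these data known. Of 37 listed genes, 36 were found as the only gene of at least 1 probe set. Cd63, a tetraspanin, was not analysed here because no probe set carried its symbol alone. All 36 passed the filter on dim genes, out of 11141 measured genes of 18193 on the array. They comprised 11 glycosidases, 5 sulfatases, 5 lipid hydrolases, 1 peptidase, 4 soluble lipid-binding or activator proteins and 10 membrane proteins, and together they had 85 probe sets.

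Lysosomes are acidic organelles in which soluble hydrolases break down glycans, lipids, proteins and nucleic acids taken up from outside the cell or delivered by autophagy. Most of these enzymes are tagged with mannose 6-phosphate in the Golgi and carried to the lysosome by mannose 6-phosphate receptors, while heavily glycosylated membrane proteins line the organelle and export the breakdown products. The basic helix-loop-helix factors of the MiT family (TFEB, TFE3, MITF and TFEC) bind E-box words in the promoters of many lysosomal genes. Macrophages digest engulfed material and are rich in lysosomes.

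Transcripts were measured on 2 arrays of space flight cultures and 2 arrays of ground control cultures. The space flight cultures were bone marrow cells of C57BL/6 mice, grown in macrophage colony-stimulating factor (M-CSF, 1.5 µg/ml) in sealed glass barrels aboard a space shuttle and lysed on culture day 15, which was flight day 14. The ground control cultures were the same cells with the same factor in the same barrels and at the same temperature on the ground. Both groups came from 1 pool of marrow of 21 adult mice, each array held RNA of 2 combined barrels, and the pools put on arrays were those with the best RNA, so the replicates cover the spread between culture pools and not between animals.

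All 4 RNA samples had an integrity number of 3, which marks degraded RNA, and went through amplification before labelling. For Gapdh, the control probe sets near the 3' end were brighter than those near the 5' end by 4.09-fold and 15.2-fold in space flight replicates 1 and 2, against 4.13-fold and 3.33-fold in ground control replicates 1 and 2. The same fold for Actb was 3.08 and 4.91 in space flight, against 2.30 and 2.84 in ground control, so that the groups did not overlap. For Tfrc, the transferrin receptor, it was 5.50 and 3.47 in space flight, against 4.96 and 7.84 in ground control, with overlap. The macrophage markers Cd68, Csf1r and Lyz2 were bright on every array, between 14.73 and 15.33 on the log2 scale. Some others of the list were dim, with Fcgr1 between 6.01 and 7.51, Mertk between 7.06 and 8.38 and the mannose receptor Mrc1 between 6.84 and 9.03, against a dim limit of 6.40. Itgam lay between 8.18 and 9.47, and Cd14, Fcgr3, Adgre1 and Msr1 between 9.88 and 13.67. A level below is a quantile normalized log2 intensity, and a difference is space flight minus ground control on that scale, with its standard error from limma. A level from whole cultures cannot tell fewer cells of a type from less RNA per cell.

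The promoters are shown first, because the MiT factors bind the E-box word CACGTG. RefSeq windows (GRCm38.p6, from 250 bases before to 50 after the gene's start) were available for 33 of the 36 genes, with 2 windows each for Psap, Ctns and Cln3, and 9 of the 33 genes (27.3%) held this word in a window, which reads the same on both strands. Among measured genes with a window 12% held it, and among all genes with a window 8.09%. The longer words GTCACGTG or CACGTGAC, which contain it, were held by 8 of the 33 genes (24.2%), against 4.99% of measured genes with a window. The 9 genes were Naglu, Gla, Glb1, Gaa, Sgsh, Arsa, Cln3, Mcoln1 and Lamp1. The stretches of 6 of them are printed to show the spacing and repeats of the word, 5' to 3' along the gene, with every CACGTG in capitals.
Lamp1 (chr8:13159091-13159160, plus strand): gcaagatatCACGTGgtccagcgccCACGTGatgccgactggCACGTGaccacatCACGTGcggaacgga
Mcoln1 (chr8:3500439-3500488, plus strand): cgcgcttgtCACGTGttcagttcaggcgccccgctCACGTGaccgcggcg
Cln3 (chr7:126583342-126583396, minus strand): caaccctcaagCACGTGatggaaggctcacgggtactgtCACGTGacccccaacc
Naglu (chr11:101070004-101070043, plus strand): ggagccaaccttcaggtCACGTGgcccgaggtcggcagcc
Glb1 (chr9:114401013-114401052, plus strand): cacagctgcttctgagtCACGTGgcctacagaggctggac
Sgsh (chr11:119355521-119355555, minus strand): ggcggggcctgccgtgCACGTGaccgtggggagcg

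In Lamp1, which encodes the most familiar lysosomal membrane glycoprotein, the 4 words began 61, 45, 28 and 15 bases before the start. Mcoln1, the lysosomal calcium channel TRPML1, had words 71 and 45 bases before it, and Cln3 had words 149 and 121 bases before the start in the window shown and none in its other window. A match is a string of letters and not evidence of binding.

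**Figure D1:**
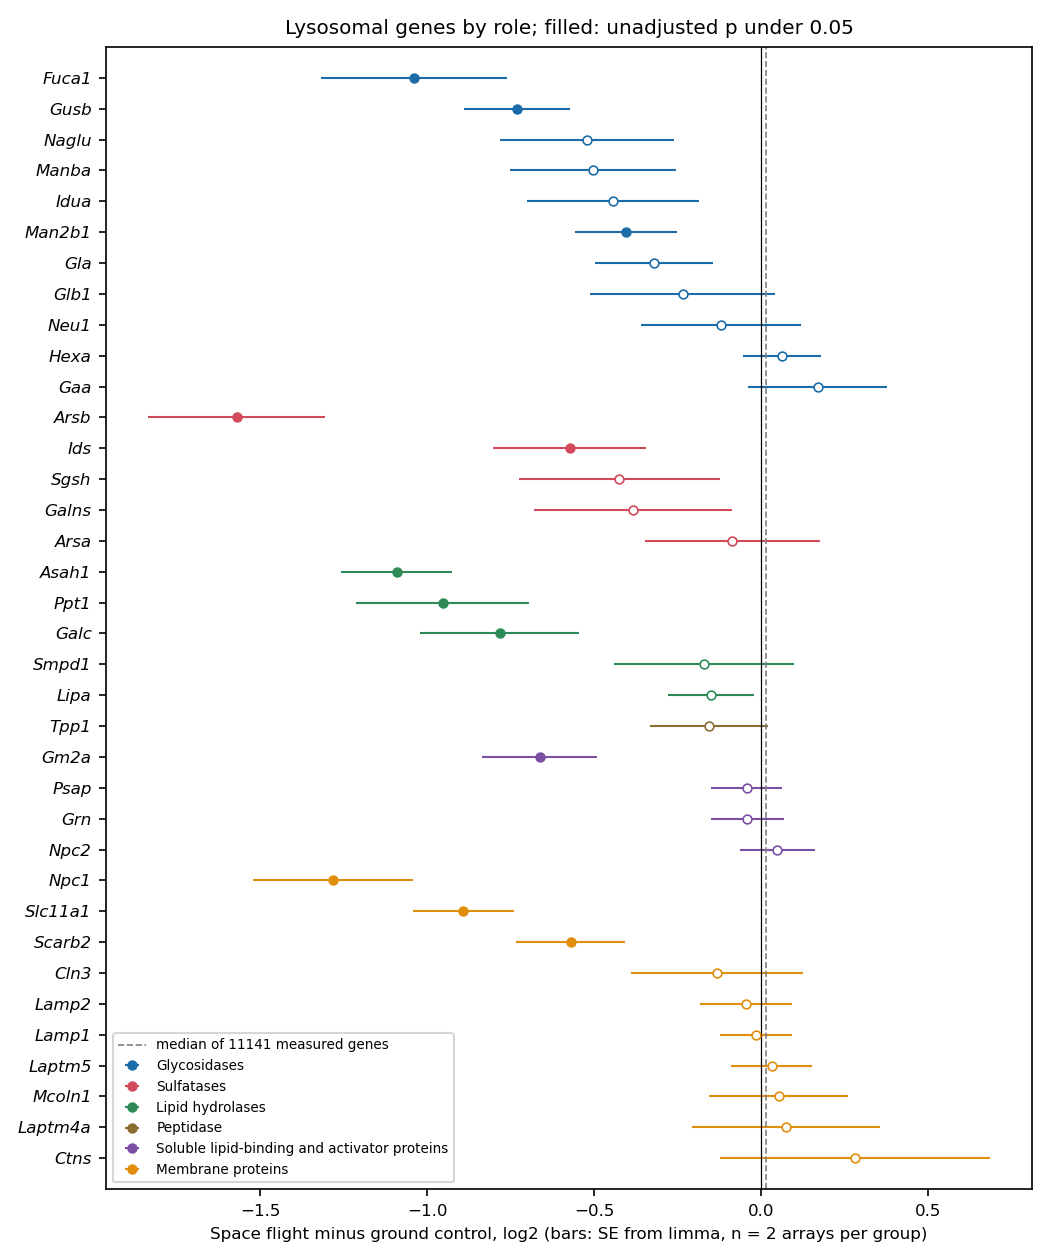
Difference between space flight and ground control (log2, points) with its standard error from limma (bars, n = 2 arrays per group) for the 36 genes, grouped by role. Filled points had an unadjusted p under 0.05, and all 12 of them lie left of 0, between -1.57 for Arsb and -0.40 for Man2b1.

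Most of the 36 genes had lower values in the space flight cultures, but none passed the test after adjustment over all genes. The difference was negative for 29 genes and positive for 7, with a median of -0.28 against 0.02 over all measured genes. With other scalings of the arrays, it was negative for 23 genes as deposited, 25 with cyclic loess and 28 with each array shifted to 1 median. At an adjusted p under 0.05 in limma, 0 of the 36 were lower (0.018% of measured genes were) and 0 were higher (0.0449% were). At an unadjusted p under 0.05, 12 of the 36 (33.3%) were lower, against 7.32% of measured genes, and 0 were higher, against 6.88%. Because the genes were chosen with earlier results of these data known, these shares are a description and not a test. For 18 genes (50%) the space flight pair lay wholly below the ground control pair, against 22.5% of measured genes, and for 1 gene, Npc2, wholly above it, against 23% of measured genes. With the mean of all probe sets of a gene in place of the brightest, the count lower at an unadjusted p under 0.05 was 6. In that fit 6.77% of measured genes were lower, and 5 of the 12 genes were among the 6. Leaving out 1 array moved the count at an adjusted p under 0.05, but the lone array of a group is then assumed to vary like the pair of the other group, which alone sets the spread. That count was 9 lower without space flight array 1 and 9 without space flight array 2, where 621 and 477 of all measured genes were lower, and it was 0 without ground control array 1 and 1 without ground control array 2, where 1 and 10 of all measured genes were lower. With 2 arrays in each group, the smallest two-sided p of an exact test on a single gene is 0.333.

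The genes are bright, and bright genes pass the test more often. Among the 982 measured genes at least as bright as the median of the 36, 14.5% were lower and 10.7% higher at an unadjusted p under 0.05, and the median difference was -0.03. On each space flight array alone, the median of the 36 against the ground control mean was -0.32 on array 1 and -0.28 on array 2, against 0.01 and 0.03 over all measured genes.

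The enzymes that cut sugars from glycans had a median difference of -0.40. Of the 11, 3 were lower at an unadjusted p under 0.05, against 7.32% of measured genes. Both space flight arrays lay below the ground control range for 8 of 11, against 22.5% of measured genes. Gusb, beta-glucuronidase, which removes glucuronic acid from glycosaminoglycans, had levels of 13.15 and 13.12 in space flight cultures, against 13.85 and 13.89 in ground control cultures. The replicates of each group lay close together and the groups did not overlap, with a difference of -0.73 ± 0.16 (adjusted p = 0.0982, limma). Fuca1, the lysosomal alpha-fucosidase, had levels of 11.43 and 12.34 in space flight cultures, against 12.85 and 13.00 in ground control cultures. Space flight array 1 was the lower of the pair by a wide margin, and the difference was -1.04 ± 0.28 (adjusted p = 0.137, limma), or -0.60 without that array. Man2b1, the lysosomal alpha-mannosidase, had levels of 13.50 and 13.48 in space flight cultures, against 13.85 and 13.93 in ground control cultures. Its groups were apart by less than those of Gusb, at -0.40 ± 0.15 (adjusted p = 0.267, limma).

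Among the other glycosidases, the differences were -0.52 for Naglu, -0.50 for the beta-mannosidase Manba, -0.44 for Idua, -0.32 for Gla (alpha-galactosidase A) and -0.12 for the sialidase Neu1, each with both space flight values below the ground control values. The groups overlapped for Glb1, the lysosomal beta-galactosidase, at -0.23, for Gaa, which degrades glycogen, at 0.17, and for Hexa at 0.06. Hexa encodes an enzyme subunit that acts in the breakdown of ganglioside GM2. It had levels of 15.11 and 15.06 in space flight cultures, against 14.96 and 15.08 in ground control cultures, so its normalized level hardly differed between arrays. As deposited, its intensities were 30985.5 and 47538.7 in space flight cultures, against 27787.7 and 32551.4 in ground control cultures.

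Sulfatases strip sulfate from glycosaminoglycans and sulfolipids, and all 5 had negative differences, with a median of -0.42. Arsb, arylsulfatase B, which acts on dermatan and chondroitin sulfate, had levels of 10.27 and 9.90 in space flight cultures, against 11.75 and 11.56 in ground control cultures. On the deposited linear scale these were intensities of 1242 and 894.5 in space flight cultures, against 3465 and 3035 in ground control cultures. The gap of -1.57 ± 0.26 was the widest among the brightest probe sets of the 36 genes and corresponds to a level 2.97-fold higher in ground control (adjusted p = 0.0568, limma). With the mean of all probe sets of Arsb the difference was -0.57, closer to 0 than those of Npc1 and Asah1. Ids, iduronate 2-sulfatase, had levels of 11.88 and 11.48 in space flight cultures, against 12.29 and 12.21 in ground control cultures. Its groups were separate, with a difference of -0.57 ± 0.23 (adjusted p = 0.295, limma). The remaining sulfatases had differences of -0.42 for Sgsh, -0.38 for Galns and -0.09 for Arsa, which removes sulfate from sulfatide.

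Ids, Idua, Sgsh and Naglu act in turn on heparan sulfate, a grouping made after their values were seen. All 4 lay below the ground control range on both space flight arrays, as did 50% of the 36 genes and 22.5% of all measured genes, with differences between -0.57 and -0.42, and 1 of the 4, Ids, had an unadjusted p under 0.05. For Idua and Sgsh a second, dimmer probe set gave the opposite sign, at 0.61 and 0.62.

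The lipid hydrolases had the most negative median of the roles with several genes, at -0.78. Of the 5, 3 were lower at an unadjusted p under 0.05, against 7.32% of measured genes. Asah1, acid ceramidase, which splits ceramide into sphingosine and fatty acid, had levels of 12.88 and 12.72 in space flight cultures, against 13.89 and 13.88 in ground control cultures. As deposited, its intensities were 7336 and 6913 in space flight cultures, against 13768 and 14982 in ground control cultures. Asah1 ranked 12 of the 11141 measured genes by p, and its difference of -1.09 ± 0.17, a level 2.13-fold higher in ground control, lay at the threshold itself (adjusted p = 0.0501, limma).

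Ppt1, a thioesterase that removes palmitate from proteins, had levels of 10.10 and 10.25 in space flight cultures, against 11.20 and 11.06 in ground control cultures. The groups stood about 1 log2 unit apart, at -0.95 ± 0.26 (adjusted p = 0.141, limma). A second probe set of Ppt1, with a mean level of 10.34 against 10.655, showed less, at -0.38, and a dimmer one stood at -0.19. Galc, which degrades galactosylceramide of myelin, had levels of 10.76 and 10.83 in space flight cultures, against 11.55 and 11.60 in ground control cultures. Its replicates were tight and its difference was -0.78 ± 0.24 (adjusted p = 0.178, limma). The values overlapped for acid sphingomyelinase, Smpd1, at -0.17 and for acid lipase, Lipa, at -0.15. They overlapped too for the only peptidase listed, Tpp1, at -0.16.

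Soluble proteins that present lipids to the hydrolases or bind them mostly had differences near 0, with a median of -0.04. The exception was Gm2a, the activator that lifts ganglioside GM2 out of membranes for breakdown, with levels of 13.30 and 13.35 in space flight cultures, against 13.81 and 14.16 in ground control cultures. Its groups did not overlap, and the difference was -0.66 ± 0.17 (adjusted p = 0.128, limma). Psap, the precursor of the saposins, and Grn, progranulin, both had differences of -0.04. Npc2, which hands cholesterol to NPC1, stood at 0.05, with 15.14 and 15.07 in space flight cultures, against 15.05 and 15.06 in ground control cultures.

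**Figure D2:**
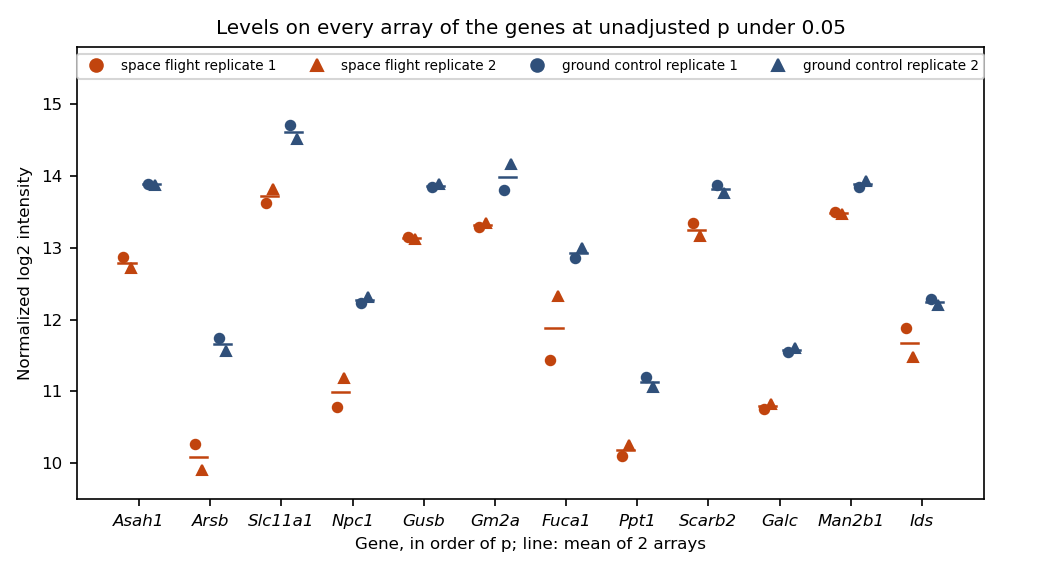
Normalized log2 intensity on each array for the 12 genes with an unadjusted p under 0.05, in order of p, with space flight arrays in orange left of ground control arrays in blue (circle, replicate 1; triangle, replicate 2; line, mean of 2 arrays). No gene shows an overlap, and Fuca1 has the widest gap between the space flight replicates, at 11.43 and 12.34.

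The membrane proteins were split. Their median difference was -0.03, with 3 of 10 lower at an unadjusted p under 0.05, against 7.32% of measured genes. The groups overlapped for 7 of 10, and for 6072 of the 11141 measured genes. Npc1, which exports cholesterol from the lysosome, had levels of 10.79 and 11.19 in space flight cultures, against 12.23 and 12.31 in ground control cultures. The groups were more than 1 log2 unit apart, with a difference of -1.28 ± 0.24, or a level 2.43-fold higher in ground control (adjusted p = 0.0848, limma). Slc11a1, the metal transporter NRAMP1 of phagocyte lysosomes, had levels of 13.62 and 13.82 in space flight cultures, against 14.71 and 14.51 in ground control cultures. Neither group reached the other, at -0.89 ± 0.15 (adjusted p = 0.0568, limma). Scarb2, the lysosomal membrane protein LIMP-2, had levels of 13.34 and 13.16 in space flight cultures, against 13.88 and 13.77 in ground control cultures. Both space flight arrays were lower by a similar amount, at -0.57 ± 0.16 (adjusted p = 0.158, limma).

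The other membrane proteins had overlapping groups in their brightest probe sets. Some of their dimmer probe sets did not overlap, such as those at -0.42 for Mcoln1 and at -0.13, 0.19 and 0.49 for Lamp2. Lamp1 had levels of 15.38 and 15.26 in space flight cultures, against 15.34 and 15.33 in ground control cultures, and a difference of -0.01. Lamp2, also a main glycoprotein of the lysosomal membrane, stood at -0.05, Laptm5 at 0.03, Mcoln1 at 0.05, Laptm4a at 0.08 and Cln3 at -0.13. Ctns, the cystine exporter, was the dimmest of the 36 and had levels of 9.10 and 8.03 in space flight cultures, against 8.30 and 8.27 in ground control cultures, so the space flight arrays lay on either side of the controls. Some of these small differences changed sign with the scaling of the arrays. Under 3 other scalings Lamp1 lay between 0.07 and 0.27, Lamp2 between -0.06 and 0.15, and Mcoln1 and Laptm4a between -0.16 and 0.04. Laptm5, Ctns and Cln3 kept their sign under these scalings.

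The brightest genes had differences near 0 after quantile normalization. The 7 brightest genes, a number chosen after the values were seen, had mean levels of at least 14.79 and had differences between -0.15 and 0.06, while the median of the other 29 was -0.42. They are Hexa, Lipa, Psap, Grn, Npc2, Laptm5 and Lamp1, and the brightest value of any probe set on the arrays was 16.01. With the values as deposited, without quantile normalization, all 7 had positive differences, between 0.10 for Lipa and 0.35 for Hexa. Over the 36 genes, level and difference had a Spearman rho of 0.28 and a Pearson r of 0.21, given as a description, since all points share the same 4 arrays. Whether the scale of the arrays limits differences at this brightness was not tested.

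**Figure D3:**
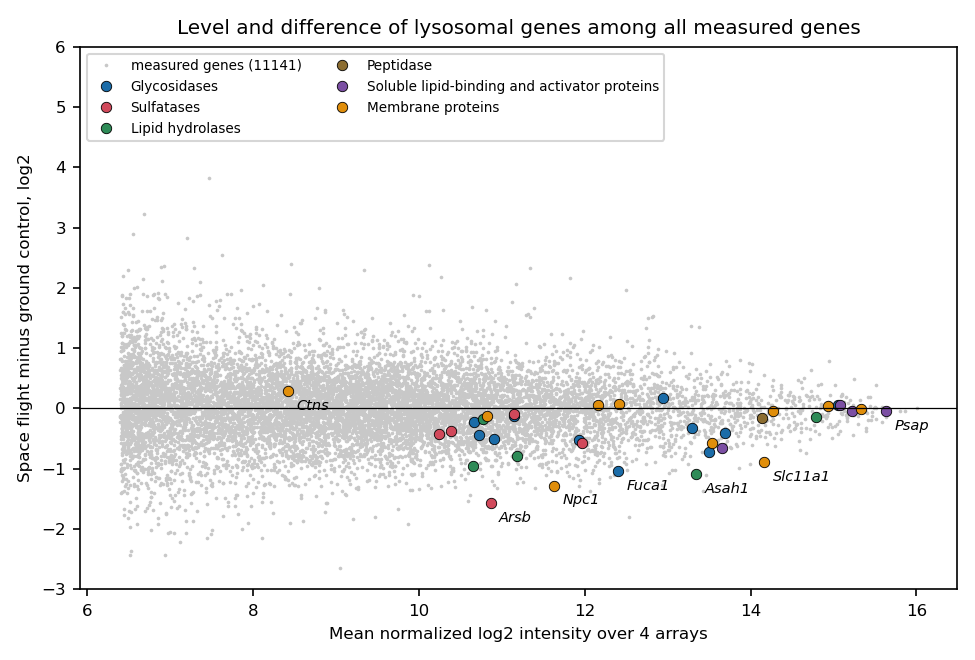
Mean normalized log2 intensity over the 4 arrays (horizontal) against the difference between space flight and ground control (log2, vertical) for all 11141 measured genes (grey) and the 36 lysosomal genes (coloured by role). The 7 genes at a level of 14.79 or more sit close to 0, between -0.15 and 0.06, and those with the lowest values, such as Arsb, Npc1 and Asah1, sit at intermediate levels.

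Several genes had more than 1 probe set, which lie at different places along the transcript, and these did not always point the same way. Of the 85 probe sets, 72 were at or above the dim limit, and 36 of these were not the brightest of their gene. In a fit over all 45037 probe sets, dim ones included, 17 of the 85 were lower at an unadjusted p under 0.05, against 4.6% of all probe sets, and 0 were higher, against 4.14%. Apart from another probe set each of Ids, Scarb2, Lipa and Laptm5, the 17 were the brightest of their genes, and most were counted above. The 36 other measured probe sets belonged to 23 genes, 24 of the 36 had a negative difference, and 20 shared the sign of their gene's brightest. For 11 of the genes, measured probe sets lay on both sides of 0.

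Among the 12 genes with an unadjusted p under 0.05, 9 of 11 other measured probe sets had the same sign as the brightest. Scarb2 had nearly the same difference in its other probe set, with levels of 13.13 and 12.86 in space flight cultures, against 13.56 and 13.67 in ground control cultures (-0.62 ± 0.19). For Ids the other measured probe set showed more, with 8.70 and 9.12 in space flight cultures, against 10.07 and 10.29 in ground control cultures (-1.27 ± 0.29). Arsb and Fuca1 were the mixed cases: the others of Arsb were dimmer and stood at 0.41 and -0.53, and those of Fuca1 at 0.09 and -0.64. Asah1, Npc1 and Slc11a1 had 1 probe set each, so their values have no second reading.

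Lipa and Laptm5 had probe sets that differed from their brightest. One of Lipa had levels of 12.62 and 12.84 in space flight cultures, against 14.01 and 13.26 in ground control cultures (-0.90 ± 0.26), while the other measured ones stood at -0.15 and 0.06. For Laptm5 a probe set with levels of 12.62 and 13.10 in space flight cultures, against 13.84 and 13.59 in ground control cultures, had -0.85 ± 0.22, while the brightest pair stood at 0.03 and 0.05. The adjusted p over all probe sets was at least 0.18 for each of the 85.

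**Figure D4:**
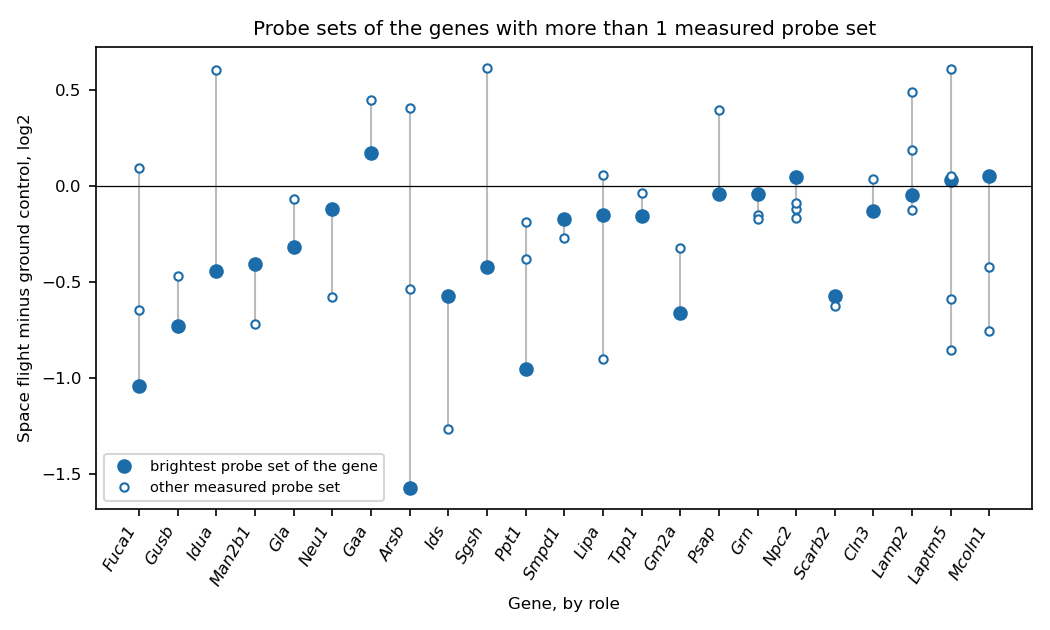
Difference between space flight and ground control (log2) for each measured probe set of the 23 genes with more than 1, ordered by role (filled, the brightest of the gene; open, the others; grey lines join probe sets of a gene). Scarb2 and Gusb have all points below 0, whereas Arsb, Idua, Sgsh, Lipa and Laptm5 have points on both sides.

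Set against the promoters printed above, the 12 genes with an unadjusted p under 0.05 had no CACGTG in the windows available. Other forms of the E-box were not searched for. A window was available for 10 of these 12, and 0 of the 10 held CACGTG, against 12% of measured genes with a window. Of the other 23 genes with a window, 9 (39.1%) held it. The split is by p from the same 4 arrays. The 9 genes with the word had a median difference of -0.13, between -0.52 for Naglu and 0.17 for Gaa, and the 24 without it had a median of -0.29. Over all measured genes the medians were 0.01 with the word and 0.02 without it. The wider lysosomal lists described further on did not share 1 order. The sorting genes, listed together with the sulfatase-modifying factor Sumf1, had a median of -0.61 for 5 genes with the word and 0.23 for 3 without it. For the other enzymes it was -0.46 for 3 with it and 0.04 for 11 without it. The other membrane proteins had -0.28 for 5 with it and -0.44 for 16 without it. Arsb, Gusb and Slc11a1 are shown as examples without it, each with the 100 bases before the start.
Arsb (chr13:93771579-93771678, plus strand): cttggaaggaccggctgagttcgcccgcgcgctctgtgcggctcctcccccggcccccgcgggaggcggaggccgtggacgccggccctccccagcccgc
Gusb (chr5:130003050-130003149, minus strand): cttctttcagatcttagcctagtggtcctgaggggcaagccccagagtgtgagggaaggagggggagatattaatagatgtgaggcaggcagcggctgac
Slc11a1 (chr1:74375103-74375202, plus strand): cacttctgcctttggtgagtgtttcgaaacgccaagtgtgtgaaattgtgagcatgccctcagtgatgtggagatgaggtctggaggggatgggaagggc
That these letters are missing from a window says nothing about the binding of a factor to the gene.

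**Figure D5:**
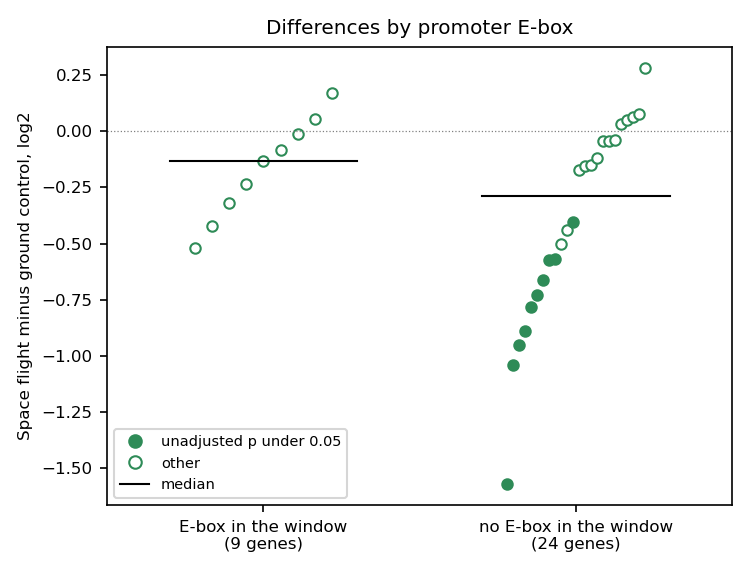
Difference between space flight and ground control (log2) of the 33 genes with a promoter window, split by whether the window holds CACGTG (9 genes) or not (24 genes), with the median as a line. The E-box named in the figure is the word CACGTG only. All 10 filled points, the genes with an unadjusted p under 0.05, are in the group without the word. Among measured genes with a window, 12% held it.

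The MiT factors themselves were all measured. Mitf had levels of 11.19 and 11.14 in space flight cultures, against 11.99 and 12.09 in ground control cultures, a difference of -0.87 ± 0.22 (adjusted p = 0.128, limma). Tfec, which is found mainly in macrophages and osteoclasts, had levels of 8.73 and 8.81 in space flight cultures, against 9.66 and 9.51 in ground control cultures (-0.82 ± 0.30, adjusted p = 0.252, limma). Both were lower at an unadjusted p under 0.05 with no overlap of the groups. Tfeb stood at 0.65, with both space flight values above the ground control values, and Tfe3 at -0.01 with overlap.

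Over all measured genes, 7.32% were lower and 6.88% higher at an unadjusted p under 0.05. Genes that sort hydrolases to the lysosome, listed together with Sumf1, had a median of -0.43 over 10 measured, with 1 lower at that p and 0 higher. That gene was Igf2r, the large mannose 6-phosphate receptor, with levels of 9.95 and 10.84 in space flight cultures, against 11.33 and 11.38 in ground control cultures (-0.96 ± 0.32). Of 19 other lysosomal enzymes measured, 6 were lower and 0 higher at that p, and the median was -0.33. By smallest p these were led by the fucosidase Fuca2 at -0.63, the protective protein Ctsa at -0.46, the asparaginyl endopeptidase Lgmn at -0.61 and the acid phosphatase Acp2 at -0.71. Of 25 other lysosomal membrane proteins measured, 8 were lower and 1 higher, with a median of -0.34. The higher one was Pip4p1, a lysosomal phosphoinositide phosphatase, with levels of 11.001 and 11.75 in space flight cultures, against 10.10 and 10.24 in ground control cultures (1.21 ± 0.30, adjusted p = 0.124, limma). The lower ones with the smallest p were Tmem106b at -0.99, Gpr137b at -0.55 and the macrophage glycoprotein Cd68 at -0.43. No gene of these lists passed at an adjusted p under 0.05.

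Neutrophil and red cell markers moved with the groups. The shares over all measured genes at an unadjusted p under 0.05 were 7.32% lower and 6.88% higher. Of 11 neutrophil and granule markers measured, 10 were higher at an unadjusted p under 0.05, 2 of them (Camp and Ngp) at an adjusted p under 0.05, with a median difference of 1.63. Their summed deposited intensity was 72677 and 140343 in space flight cultures, against 36524 and 42546 in ground control cultures. Red cell markers were higher for 5 of 6 measured, with sums of 6528 and 13060 in space flight cultures, against 1540 and 3302 in ground control cultures. Of 11 macrophage markers, 6 were lower and 0 higher at that p, with a median of -0.37 and sums of 108704 and 148032 in space flight cultures, against 127618 and 139759 in ground control cultures. Of 7 osteoclast markers 5 were measured, Calcr and Ocstamp being dim, and Ctsk and Atp6v0d2 were lower at that p, at -1.02 and -1.15. Of the 5, 4 had a negative difference and 1, Acp5, a positive one. Acp5 stood at 0.73, with both space flight values above the ground control values, and did not pass at that p. Osteoclast markers summed to 14883 and 12841 in space flight cultures, against 25327 and 22960 in ground control cultures. Of the markers of other cells, 2 of 4 measured megakaryocyte markers and the 1 measured marker of mast cells, basophils or eosinophils were higher at that p, and none of the 3 stromal, 1 B cell and 1 T or NK cell markers measured passed in either direction. The 36 lysosomal genes summed to 374051 and 531925 in space flight cultures, against 430159 and 457547 in ground control cultures. All these sums are of deposited intensities, without quantile normalization. The 11141 measured genes summed to 23025629 and 26565215 in space flight cultures, against 23071744 and 23855275 in ground control cultures. The 982 brightest of them summed to 12979932 and 16870964 in space flight cultures, against 12971655 and 13891304 in ground control cultures. Space flight array 2 thus had the highest sum in both sets. The part of cell makeup and of RNA quality in the differences of the lysosomal genes was not tested.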

How the data were processed

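The deposited table gave linear intensities, 1 for each of 45101 probe sets on each array. The software was GCOS, per the submitters' processing notes; its version, algorithm and scaling target: not given in the sources used here. From the deposited intensity values, the mean after trimming 2% at each end was 500.004 on all arrays. The number of arrays limits the precision.

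In R 4.3.3, log2(intensity + 16) was computed, and because array medians differed by 0.385 quantile normalization was applied, leaving out the 64 controls. Fold changes on this scale understate those of dim genes. The platform annotation gave 34945 of the others a single gene symbol, 932 several, and 9160 were unnamed here. The brightest single-gene probe set stood for each gene, and genes with a mean of at least 6.40 (the median of all probe sets) were measured. The groups were compared with limma 3.58.1 (lmFit, eBayes with intensity trend, two-sided) over all measured genes, adjusted by Benjamini-Hochberg, at a threshold of 0.05; 2 residual degrees of freedom became 10.4 after moderation. The procedure was tested on simulated data. The members and lists were chosen with earlier results of these data known, so no set test was made. Members at an unadjusted p under 0.05 are given with every array, others by value; other lists name up to 4 genes by smallest p. Same-numbered replicates did not deviate together (correlation 0.0271 over all probe sets), so they were not paired. Alternatives covered pseudocount, scaling, filter, choice of probe set, trend, replicate block and leaving out each array. No build is named for the probe sets; promoter coordinates are those of RefSeq (GRCm38.p6).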

Additional observations from a re-analysis of the deposited data

How the results depend on the processing

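The 12 genes with an unadjusted p under 0.05 kept a negative difference in all 15 alternatives and in the fit over all probe sets. Much of this was fixed in advance. The filter, trend and replicate block alternatives and the fit over all probe sets hold the same differences as the main fit. For each of the 12 the groups did not overlap, so leaving out an array could change the sign only through renormalization. Of the 36 genes, 17 were negative in all alternatives. The count at an adjusted p under 0.05, 0 as reported, was 1 with a pseudocount of 64 (Asah1), 1 with the values as deposited and 1 with cyclic loess (Arsb both times), 2 without the s_at and x_at probe sets (Asah1, Arsb), 3 with a stricter filter on dim genes (also Slc11a1) and 7 with the replicate number as a block. Over all genes, 6, 4, 5, 9, 12 and 213 were lower in these fits. Leaving out 1 array gave 0 to 9. The adjusted p of Asah1 ranged between 0.000297 and 0.367 over the alternatives. The count lower at an unadjusted p was 6 with the mean of all probe sets of a gene, where 6.77% of all genes were. With 1 array left out, Laptm4a ranged between -0.36 and 0.48 and Ctns between -0.25 and 0.83. The count below the ground control range was 22 to 29 with 1 array left out, where 32 to 38.4% of all genes were. The count above it was 2 without the s_at and x_at probe sets, 3 with loess, 0 with arrays shifted to 1 median, 2 with the mean of probe sets and 0 as deposited. Over all genes, 22.2, 24.1, 13.8, 21.3 and 23.8% were above it in these fits. The count was 2 to 5 with 1 array left out, where 34 to 41.8% of all genes were above it. The median over the 36 genes was -0.35 without s_at and x_at probe sets, -0.48 with shifted arrays (all genes -0.16), -0.23 with the mean of probe sets and -0.31 to -0.23 with 1 array left out. For glycosidases it was -0.485 shifted, -0.23 with the mean of probe sets, -0.28 as deposited and -0.46 to -0.36 with 1 array left out. For lipid hydrolases it was -1.02 shifted and -0.33 with the mean of probe sets. For membrane proteins it was -0.16 shifted, 0.04 as deposited and -0.185 to 0.0118 with 1 array left out. With the mean of probe sets Arsb was -0.57, Fuca1 -0.22, Ids -0.24 and Ppt1 -0.30. The cause of these shifts was not tested.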
